A study of Mus musculus with 8 samples.

Results

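Matrix and secreted genes of the fibroblasts that line and penetrate the brain were followed across 8 Affymetrix arrays of mouse cerebral cortex and hippocampus. The 10 genes were chosen by symbol (Dcn, Lum, Fmod, Ogn, Islr, Col1a1, Col1a2, Col3a1, Igf2 and Slc22a6). Each had 1 probe set, out of 22206 probe sets and 19505 genes named on the array. Of the 10, 9 lay above the filter on low values and were tested among 14804 probe sets, and Col3a1 lay below it. The mice were males aged 12 weeks. The exposed mice received clothianidin, an insecticide of the neonicotinoid class whose targets are nicotinic receptors, at 50 mg/kg/day for 2 weeks, and the controls received the vehicle with 1% DMSO over the same time. The 4 groups were exposed hippocampus, control hippocampus, exposed cortex and control cortex, with 2 arrays in each. The strain is not stated in the labels. In both tissues the labels number the exposed arrays 3 and 6 and the control arrays 1 and 6, and these numbers name the arrays here. Nothing in the labels says that paired arrays of 1 group are different animals. The p-values below therefore refer to the spread between these particular samples, and that spread may be technical.

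The meninges are the membranes around the brain, and their fibroblasts continue along penetrating vessels as perivascular fibroblasts. These cells secrete fibrillar collagens together with small leucine-rich repeat proteoglycans, proteins that bind collagen fibrils and set their spacing and diameter. In adult brain the growth factor gene Igf2 is expressed mainly in the leptomeninges and the choroid plexus, and organic anion transporters of the Slc22 family have been described at the arachnoid barrier of rodents. The arrays measured RNA of whole tissue pieces, in which fewer cells of a type and less RNA per cell cannot be told apart.

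Promoters are shown for 4 genes whose levels moved together across arrays (Ogn, Fmod, Islr and Slc22a6) and, for contrast, for the collagen gene Col1a2. Each holds 250 bases before and 50 bases after the RefSeq transcription start on GRCm38.p6, written from 5′ to 3′ on the gene's strand. RefSeq promoters were matched for 7 of the 10 genes, and Dcn, Lum and Col1a1 are named only. Capitals mark matches, on either strand, to 4 motifs. They were the proximal box CCAAT, the core promoter element TATAAA, the TEAD motif GGAATG and the Sp1 box GGGCGG.
Ogn, chr13:49607765-49608064, plus strand: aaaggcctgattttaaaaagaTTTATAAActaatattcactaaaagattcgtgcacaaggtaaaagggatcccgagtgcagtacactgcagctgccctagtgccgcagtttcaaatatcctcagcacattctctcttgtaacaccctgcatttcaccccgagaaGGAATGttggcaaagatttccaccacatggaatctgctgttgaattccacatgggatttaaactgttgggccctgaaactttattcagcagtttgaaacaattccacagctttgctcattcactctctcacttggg
Fmod, chr1:134037004-134037303, plus strand: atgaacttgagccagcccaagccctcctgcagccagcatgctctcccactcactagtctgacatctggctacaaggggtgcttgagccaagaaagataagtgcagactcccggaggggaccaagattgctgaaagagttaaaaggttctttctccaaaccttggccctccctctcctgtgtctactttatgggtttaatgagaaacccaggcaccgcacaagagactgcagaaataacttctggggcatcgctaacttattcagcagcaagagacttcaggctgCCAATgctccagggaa
Islr, chr9:58158505-58158804, minus strand: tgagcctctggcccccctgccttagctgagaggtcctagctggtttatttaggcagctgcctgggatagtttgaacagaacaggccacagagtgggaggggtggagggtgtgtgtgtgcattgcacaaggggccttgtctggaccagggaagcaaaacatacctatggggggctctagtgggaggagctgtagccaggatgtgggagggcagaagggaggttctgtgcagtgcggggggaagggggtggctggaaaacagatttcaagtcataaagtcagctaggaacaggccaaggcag
Slc22a6, chr19:8617746-8618045, plus strand: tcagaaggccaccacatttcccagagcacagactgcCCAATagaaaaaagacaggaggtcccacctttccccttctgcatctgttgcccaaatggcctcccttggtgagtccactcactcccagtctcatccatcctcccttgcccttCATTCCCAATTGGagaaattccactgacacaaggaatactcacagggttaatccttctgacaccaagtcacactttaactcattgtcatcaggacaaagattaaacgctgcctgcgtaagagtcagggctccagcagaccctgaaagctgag
Col1a2, chr6:4505368-4505667, plus strand: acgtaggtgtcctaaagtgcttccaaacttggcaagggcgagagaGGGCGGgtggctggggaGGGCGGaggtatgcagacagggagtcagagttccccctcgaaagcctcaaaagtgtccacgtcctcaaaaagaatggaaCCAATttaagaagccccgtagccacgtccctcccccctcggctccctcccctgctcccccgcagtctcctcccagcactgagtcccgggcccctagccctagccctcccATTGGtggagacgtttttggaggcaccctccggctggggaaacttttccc
CCAAT stood in 37.4% of 32851 RefSeq promoters of this length, GGGCGG in 35.7%, GGAATG in 14.7% and TATAAA in 13.6%. The Ogn promoter held 2 overlapping TATAAA matches, 1 on each strand, and 1 GGAATG match. The Slc22a6 promoter held 3 CCAAT matches and 1 GGAATG match, which run into each other at the second group of capitals. Fmod had 1 CCAAT match, Col1a2 had 2 CCAAT and 2 GGGCGG matches, and Islr had none of the 4 motifs. No motif of the 4 was common to the 4 genes that moved together. These matches describe letters in the window and not sites of binding.

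Array medians lay between 5.21 and 5.4 on the log2 scale, and the 2 arrays within a group had Pearson r between 0.9867 and 0.9915 over all probe sets. All 7 tested hippocampal neuron markers passed as higher in hippocampus in both arms, with median differences of 4.25 in exposed and 4.72 in control arrays. Cortical neuron markers passed as lower in hippocampus for 4 of 7 in exposed and 6 of 7 in control arrays, with median differences of -1.62 in exposed and -3.30 in control arrays. In hippocampus their mean log2 level was 9.41 and 8.86 in exposed 3 and 6 and 8.44 and 8.43 in control 1 and 6, against 10.65 to 11.12 in the 4 cortical arrays. Ttr, the transthyretin gene that marks choroid plexus epithelium, separated single arrays. Its log2 level was 7.27 and 6.39 in exposed hippocampus (arrays 3 and 6) and 19.51 and 7.76 in control hippocampus (arrays 1 and 6). In cortex it was 5.73 and 4.68 in the exposed arrays and 4.17 and 15.41 in the control arrays. Folr1, another choroid plexus marker, was at 11.55 in control 1 hippocampus and between 3.36 and 5.49 in the other 7 arrays. The mean log2 level of 10 choroid plexus markers was 11.16 in control 1 hippocampus, 6.12 in control 6 cortex and between 4.01 and 5.07 in the other 6 arrays. Control 1 hippocampus and control 6 cortex therefore stand apart in Ttr, and values without both are given where they matter.

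**Figure D1:**
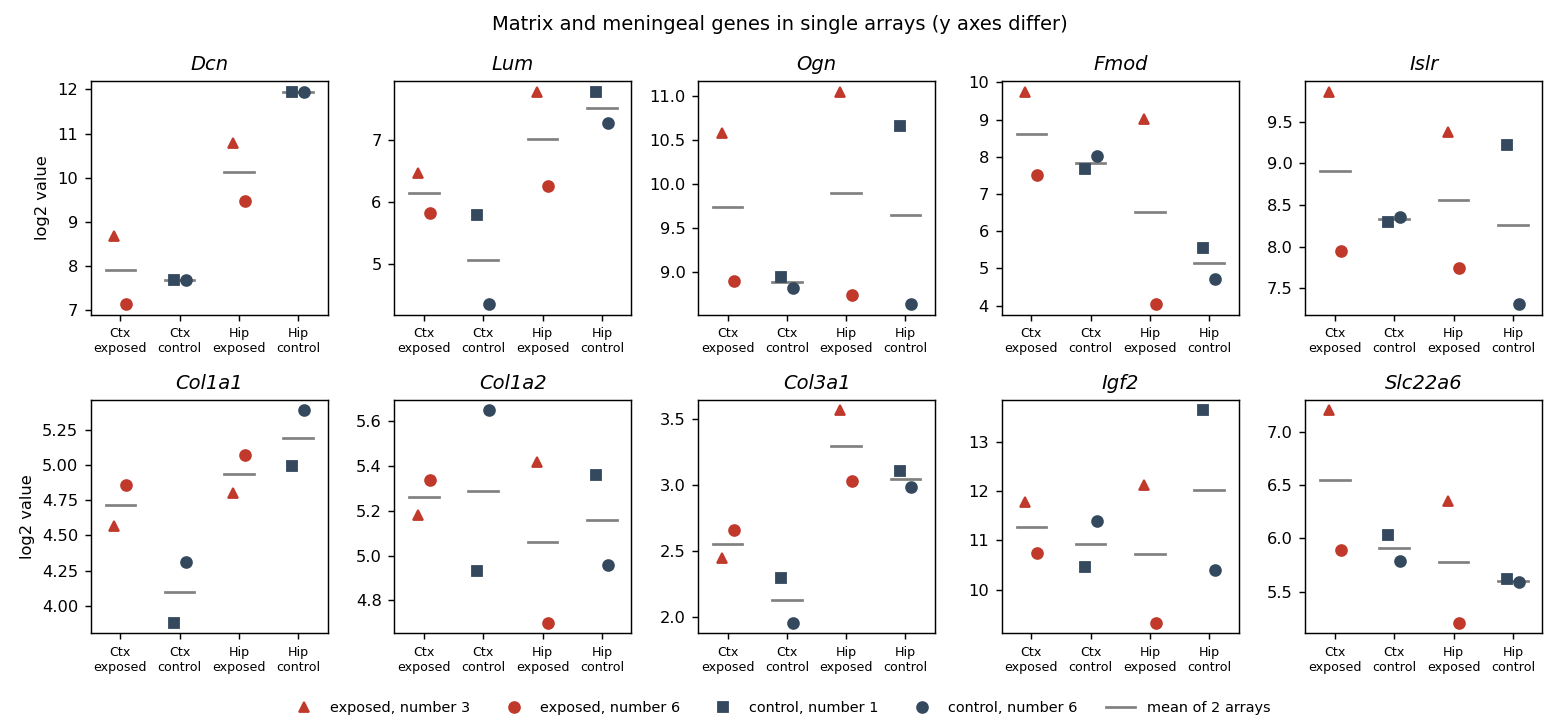
The log2 level of each of the 10 genes is plotted in every array, 1 panel per gene, with points for the 2 arrays of each group and a bar for their mean. Dcn stands between 9.47 and 11.95 in hippocampus and between 7.13 and 8.67 in cortex, and the exposed 3 arrays lie above the exposed 6 arrays by at least 1 in both tissues for Dcn, Fmod, Ogn, Islr, Igf2 and Slc22a6.

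Between the tissues, decorin was the clearest difference. Dcn encodes decorin, a proteoglycan with a single glycosaminoglycan chain that binds collagen fibrils and TGF-beta. Its log2 level in hippocampus was 10.79 and 9.47 in exposed and 11.95 and 11.94 in control arrays, against 8.67 and 7.13 in exposed and 7.69 and 7.69 in control cortex. Every hippocampal array was above every cortical array. The difference between hippocampus and cortex was 2.23 (SE 0.48, 95% interval 1.19 to 3.27, 4.69-fold) in exposed mice, with an adjusted p of 0.00841 in limma. In control mice it was 4.26 (SE 0.48, 95% interval 3.22 to 5.29, 19.1-fold), with an adjusted p of 8.15e-05. Without exposed 3 hippocampus the difference in exposed mice was 1.57 (adjusted p = 0.0847), and without exposed 6 cortex it was 1.46 (adjusted p = 0.0781). Over all alternatives run that adjusted p lay between 3.68e-05 and 0.0847. The order of the group means was control hippocampus at 11.95 ± 0.01, exposed hippocampus at 10.13 ± 0.93, exposed cortex at 7.90 ± 1.09 and control cortex at 7.69 ± 0.00 (SD, n = 2 each), and the cortical groups overlapped.

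Lumican, a keratan sulphate proteoglycan that regulates collagen fibril assembly, lies next to Dcn on chromosome 10 with 0 protein-coding genes between them in RefSeq. In hippocampus Lum was at 7.78 and 6.26 in exposed and 7.78 and 7.27 in control arrays, and in cortex it was at 6.47 and 5.83 in exposed and 5.79 and 4.36 in control arrays. Only in control mice did the arrays of the tissues not overlap. The hippocampal level was higher by 2.45 (SE 0.53, 95% interval 1.30 to 3.60, 5.46-fold) in control mice, with an adjusted p of 0.0074 in limma. In exposed mice the difference was 0.87 (95% interval -0.28 to 2.02, adjusted p = 0.302). Without the 2 arrays high in Ttr the control difference was 1.48 (adjusted p = 0.193), and without control 6 cortex alone it was 1.74 (adjusted p = 0.0923). Over the alternatives its adjusted p lay between 0.00026 and 0.193.

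Fibromodulin, the closest relative of lumican among these genes, had the opposite sign. Fmod was at 9.02 and 4.04 in exposed and 5.56 and 4.71 in control hippocampus, against 9.75 and 7.50 in exposed and 7.67 and 8.02 in control cortex. Exposed 3 hippocampus stood with the cortical arrays, and the other 3 hippocampal arrays lay below all cortical ones. The difference between hippocampus and cortex was -2.10 in exposed mice (SE 1.16, 95% interval -4.63 to 0.44, adjusted p = 0.259 in limma). In control mice it was -2.71 (SE 1.16, 95% interval -5.25 to -0.17, adjusted p = 0.133). Leaving out both exposed 3 arrays, a setting added after the data were seen, gave -3.46 in exposed mice, which sets 1 array against 1 array. In control mice the difference stayed at -2.71 in that setting, and also without exposed 6 hippocampus alone. What changed in both settings was the spread, which no longer held both exposed hippocampal arrays (9.02 and 4.04). Without both exposed 3 arrays the spread also lacked the pair of exposed cortical arrays (9.75 and 7.50). The adjusted p ranged over the alternatives from 0.00393 to 0.787 in exposed and from 0.00187 to 0.361 in control mice. Prelp, which encodes a proteoglycan of basement membranes and lies next to Fmod on chromosome 1, had the opposite sign to its neighbour. It was higher in hippocampus by 2.04 in exposed (adjusted p = 0.0172) and 2.51 in control mice (adjusted p = 0.00458). The Prelp call was lost in 4 of 17 alternatives in exposed mice (without both exposed 3 arrays, exposed 6 cortex, exposed 3 hippocampus or exposed 6 hippocampus, with differences from 1.40 to 2.51 and adjusted p up to 0.148) and in 1 of 17 in control mice (without control 1 cortex, 2.11, adjusted p = 0.063).

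Neither osteoglycin nor Islr had a tissue difference that passed. Ogn encodes osteoglycin, or mimecan, a proteoglycan of connective tissue, and Islr encodes a leucine-rich repeat protein with an immunoglobulin domain that marks mesenchymal stromal cells. Ogn was at 11.05 and 8.74 in exposed and 10.66 and 8.63 in control hippocampus, and at 10.58 and 8.89 in exposed and 8.94 and 8.82 in control cortex. Islr was at 9.38 and 7.75 in exposed and 9.22 and 7.31 in control hippocampus, and at 9.86 and 7.95 in exposed and 8.30 and 8.36 in control cortex. For both genes the tissues overlapped in either arm. Differences between hippocampus and cortex were 0.16 in exposed and 0.77 in control mice for Ogn, with 95% intervals from -1.49 to 1.81 and from -0.88 to 2.41. For Islr they were -0.34 in exposed and -0.07 in control mice, with intervals from -1.84 to 1.16 and from -1.57 to 1.44.

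The fibrillar collagen genes moved over a narrower range. Col1a1 and Col1a2 encode the chains of type I collagen, and Col3a1 encodes type III collagen, which is common in vessel walls. Col1a1 was at 4.80 and 5.07 in exposed and 4.99 and 5.39 in control hippocampus, and at 4.57 and 4.86 in exposed and 3.88 and 4.31 in control cortex. Control cortex was lower than the other groups. The hippocampal level was higher by 1.10 in control mice (SE 0.31, 95% interval 0.42 to 1.77, 2.14-fold, adjusted p = 0.0307 in limma), against 0.22 in exposed mice (95% interval -0.46 to 0.90, adjusted p = 0.683). The control call did not hold with each array centred on its median (0.94, adjusted p = 0.0634), without the 2 arrays high in Ttr (1.51, adjusted p = 0.0652) or without both exposed 3 arrays (1.10, adjusted p = 0.0556), nor without control 1 cortex (0.88, adjusted p = 0.202), control 6 cortex (1.31, adjusted p = 0.0642) or control 6 hippocampus (0.90, adjusted p = 0.147). Its adjusted p ranged from 0.0224 to 0.202 over the alternatives. Col1a2 ranged from 4.70 to 5.65 over all 8 arrays, and its tissue differences were -0.20 in exposed and -0.13 in control mice. Col3a1 ranged from 1.96 to 3.57. Its mean of 2.76 was below the filter limit of 3.94, so it was not shown to be above background in either tissue.

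For Igf2 and Slc22a6 too, no tissue difference passed with all 8 arrays. Igf2, a growth factor that signals through the IGF1 receptor, was at 12.12 and 9.33 in exposed and 13.64 and 10.40 in control hippocampus, and at 11.78 and 10.75 in exposed and 10.46 and 11.39 in control cortex. The highest value belonged to control 1 hippocampus, the array in which choroid plexus markers were high. Between hippocampus and cortex the Igf2 difference was -0.54 in exposed mice (95% interval -2.60 to 1.52). In control mice it was 1.10 (95% interval -0.97 to 3.16), and -0.06 without the 2 arrays high in Ttr. Without control 6 hippocampus, which leaves the Ttr-high control 1 as the single control hippocampus, it was 2.72 and passed (adjusted p = 0.0475), and the adjusted p ranged up to 0.979 over the alternatives. The part of the choroid plexus in the Igf2 values was not tested. Slc22a6, which encodes organic anion transporter OAT1, was at 6.35 and 5.21 in exposed and 5.62 and 5.59 in control hippocampus, and at 7.20 and 5.89 in exposed and 6.03 and 5.79 in control cortex. Its differences of -0.77 in exposed and -0.31 in control mice had 95% intervals from -1.74 to 0.21 and from -1.28 to 0.67.

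In total, 1 of the 9 tested genes (Dcn) passed as higher in hippocampus in exposed mice, where 14.5% of all probe sets tested passed, 9.25% as higher and 5.22% as lower. In control mice 3 of 9 (Dcn, Lum and Col1a1) passed as higher and 0 as lower, where 17.7% passed, 10.1% as higher and 7.63% as lower. An unadjusted p under 0.05 was found for 1 of 9 in exposed and 4 of 9 in control mice, against 29.3% and 31.4% of all probe sets in those arms. In exposed mice the arrays of the tissues did not overlap for 1 of 9 genes, higher in hippocampus (35% of all probe sets), and for 0 of 9, lower (22%). In control mice they did not overlap for 3 of 9, higher (34.5%), and for 2 of 9, lower (24.7%). The median difference between hippocampus and cortex over the 9 genes was -0.20 in exposed mice, against 0.13 over all probe sets tested. In control mice it was 0.77, against 0.10, and it was -0.06 without the 2 arrays high in Ttr.

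**Figure D2:**
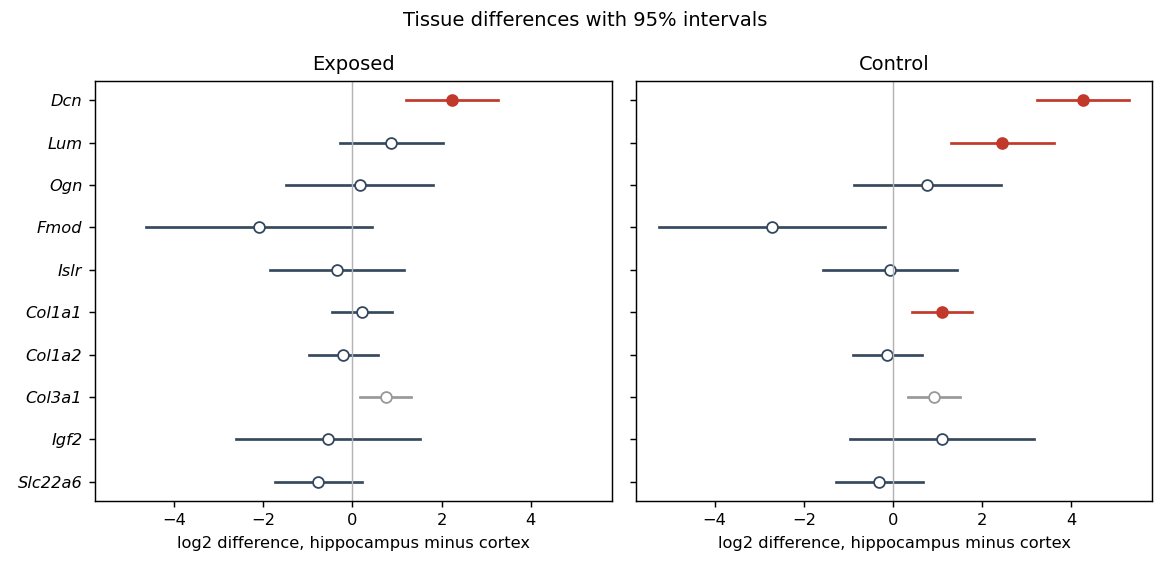
Differences between hippocampus and cortex are plotted on the log2 scale with 95% intervals, for exposed mice on the left and control mice on the right. Filled red points passed an adjusted p of 0.05, open points did not, and grey Col3a1 comes from the fit without a filter; Dcn passed in both arms, at 2.23 and 4.26, and Lum and Col1a1 passed in control mice.

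Exposure to clothianidin moved none of the 9 genes past the threshold in either tissue. In cortex 0 of 9 passed, where 0.00675% of all probe sets did (1 of 14804), and 0 of 9 had an unadjusted p under 0.05, against 6.18% of all. The difference between exposed and control cortex was above 0 for 8 of 9 genes and below 0 for Col1a2, with a median of 0.62 against -0.03 over all probe sets tested. The exposed and control arrays did not overlap for 2 of 9, both higher in exposed cortex, where 17.1% of all probe sets did not overlap in that direction. These were Lum, with a difference of 1.08 (95% interval -0.08 to 2.23, adjusted p = 0.808 in limma), and Col1a1, with 0.62 (95% interval -0.06 to 1.30, adjusted p = 0.808). The other cortical differences were 0.86 for Ogn, 0.78 for Fmod, 0.64 for Slc22a6, 0.58 for Islr, 0.34 for Igf2, 0.21 for Dcn and -0.03 for Col1a2. Their 95% intervals all included 0 and reached from -1.76 to 3.32 for Fmod, the widest. Without both exposed 3 arrays the cortical median was -0.02, and Dcn, Fmod, Slc22a6, Igf2 and Islr were below their control means, with differences between -0.56 and -0.02. Lum (0.76) and Col1a1 (0.77) kept their sign in that setting.

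In hippocampus 0 of 9 passed, where again 0.00675% of all probe sets did. Dcn, at 10.79 and 9.47 in exposed and 11.95 and 11.94 in control hippocampus, was the single gene of the 9 whose arrays did not overlap, and both exposed arrays were lower. For comparison, 14% of all probe sets were separated in that direction. The difference was -1.82 (SE 0.48, 95% interval -2.85 to -0.78), with an unadjusted p of 0.00247 and an adjusted p of 0.769 in limma. Over the alternatives run its adjusted p lay between 0.335 and 0.997, and its value between -2.48 and -1.16. In the same comparison, cortical neuron markers had a median exposure difference of 0.65, with 5 of 7 above 0, and the cortical marker Tshz2 passed as higher (11.29 and 10.35 in exposed, against 8.33 and 8.24 in control arrays, adjusted p = 0.0449 in limma). Choroid plexus markers had a median of -2.97, with 10 of 10 below 0, and ependymal markers had -0.93, with 5 of 5 below 0. Among the hippocampal arrays, control 1 alone stood high in choroid plexus markers. Their mean log2 level was 11.16 in control 1 and 5.07 in control 6, against 4.999 and 4.97 in exposed 3 and 6. For ependymal markers it was 6.57 and 5.25, against 4.82 and 4.92. Dcn was at 11.95 and 11.94 in the same control arrays. The part of the cortical neuron, choroid plexus and ependymal markers in the Dcn difference was not tested. Dcn was also the 1 of 9 genes with an unadjusted p under 0.05, against 5.81% of all probe sets. The remaining differences were 1.40 for Fmod, 0.30 for Islr, 0.25 for Ogn, 0.18 for Slc22a6, -0.10 for Col1a2, -0.26 for Col1a1, -0.51 for Lum and -1.30 for Igf2. Their 95% intervals all included 0. The median over the 9 genes was -0.10, against 0.01 over all probe sets tested, and -0.91 without both exposed 3 arrays.

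The exposure difference in hippocampus minus that in cortex passed for 0 of 9 genes and for 0% of all probe sets. An unadjusted p under 0.05 was found for 1 of 9, against 3.45% of all probe sets. For Dcn it was -2.03 (95% interval -3.49 to -0.56, unadjusted p = 0.0109, adjusted p = 0.998 in limma). Lum had -1.58 (95% interval -3.21 to 0.05), Igf2 had -1.64 (95% interval -4.55 to 1.28) and Col1a1 had -0.88 (95% interval -1.84 to 0.09). Of the 9 genes, 8 were below 0, all but Fmod at 0.62, and the median was -0.61 against 0.05 over all probe sets tested. The exposure comparisons and the comparisons of the tissues use the same 8 arrays, so their values are not independent of each other.

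**Figure D3:**
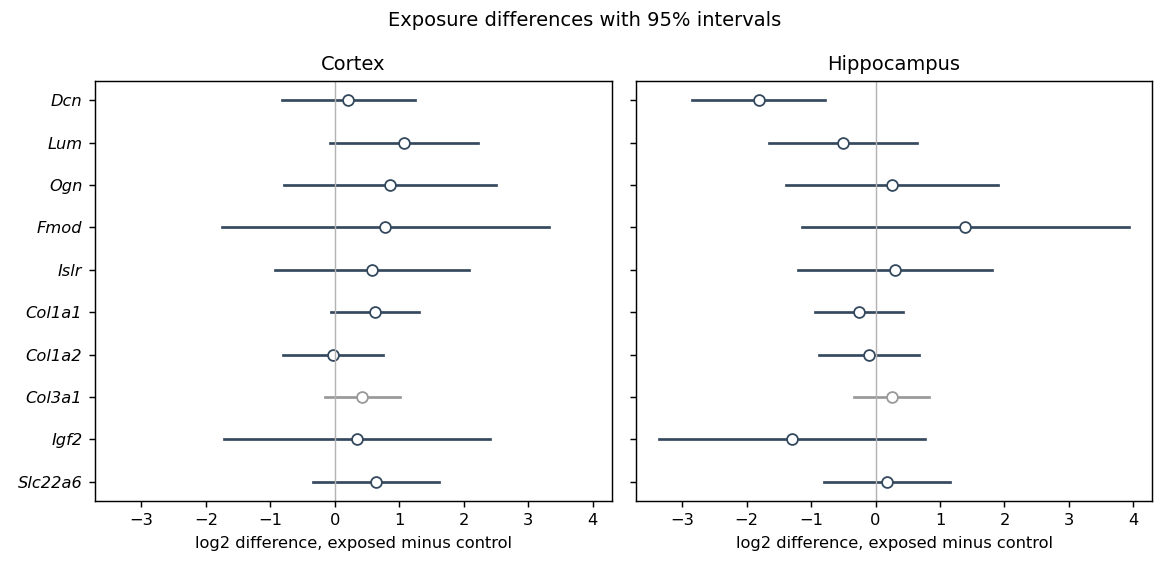
Differences between exposed and control mice are plotted on the log2 scale with 95% intervals, for cortex on the left and hippocampus on the right; grey Col3a1 comes from the fit without a filter. No gene passed an adjusted p of 0.05, and the interval excludes 0 for Dcn in hippocampus alone, from -2.85 to -0.78.

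Within the exposed groups, the spread between arrays followed the array number. Exposed 3 was above exposed 6 in both tissues for 7 of the 9 tested genes, against 27.3% of all probe sets tested. For 6 of 9 (Dcn, Fmod, Ogn, Islr, Igf2 and Slc22a6) it was above by at least 1 on the log2 scale in both tissues, against 0.588% of all. The gap between exposed 3 and exposed 6 had a median of 1.31 over the 9 genes in cortex and 1.52 in hippocampus, against -0.02 over all probe sets tested in each. In single genes it was 2.25 in cortex and 4.98 in hippocampus for Fmod, and 1.69 and 2.31 for Ogn. Col1a1 had gaps of -0.29 and -0.27, below 0 in both tissues. Exposed 3 was the highest of the 4 cortical arrays for 7 of 9 genes, against 21.4% of all probe sets, and exposed 6 was the lowest of the 4 hippocampal arrays for 6 of 9, against 23.5%. Exposed 3 was above both controls in both tissues for 4 of 9, against 11.3%.

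In the control arrays of cortex, control 1 minus control 6 had a median of -0.06 over the 9 genes, against 0.04 over all probe sets tested. In hippocampus it was 0.51, against 0.07 over all probe sets tested, and control 1 was the higher for 8 of 9 (55.2% of all), against 3 of 9 in cortex (53.7% of all). Centred on each gene's mean over all arrays, the 9 genes averaged 0.96 and -0.83 in exposed 3 and 6 hippocampus and 0.75 and -0.21 in control 1 and 6 hippocampus. In cortex they averaged 0.67 and -0.44 in exposed 3 and 6 and -0.49 and -0.41 in control 1 and 6. Exposed 3 was the highest array of either tissue on this average, and exposed 6 was the lowest of the hippocampus.

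**Figure D4:**
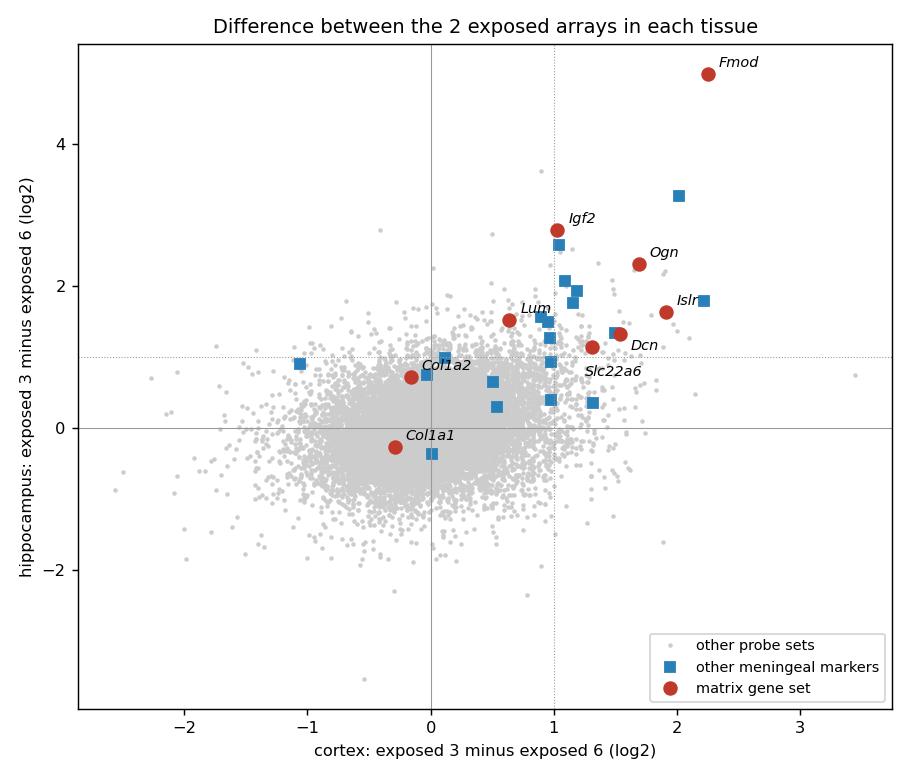
Each point is a probe set, placed by the log2 gap between exposed 3 and exposed 6 in cortex (horizontal axis) and hippocampus (vertical axis); grey points are the 14804 probe sets tested, blue squares other meningeal markers, named red points the 9 genes, and dotted lines mark a gap of 1. Fmod (2.25 and 4.98) and Ogn (1.69 and 2.31) lie to the upper right, and Col1a1 (-0.29 and -0.27) lies below 0 on both axes.

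Other meningeal genes moved with the same arrays. Of 19 tested meningeal markers, 16 were above in exposed 3 in both tissues, against 27.3% of all probe sets tested. Median gaps were 0.98 in cortex and 1.26 in hippocampus. In both tissues 7 of the 19 were above by at least 1, against 0.588% of all. The mean log2 level of the 19 was 7.70 and 6.44 in exposed 3 and 6 hippocampus, 7.26 and 6.73 in control 1 and 6 hippocampus, 7.90 and 7.03 in exposed 3 and 6 cortex and 7.17 and 7.38 in control 1 and 6 cortex. The 7 included Slc22a8, which encodes the transporter OAT3 and lies next to Slc22a6 on chromosome 19. Slc22a8 was at 9.28 and 7.35 in exposed and 9.42 and 8.27 in control hippocampus, and at 9.76 and 8.57 in exposed and 9.19 and 9.57 in control cortex. The others were Ptgds (prostaglandin D synthase), the transporters Slc6a13, Slc6a20a, Slc13a3 and Slc13a4, and the growth factor gene Bmp7. Ptgds had gaps of 2.02 in cortex and 3.27 in hippocampus. Omd, which encodes osteomodulin and is the neighbour of Ogn on chromosome 13, was at 5.33 and 3.17 in exposed and 3.44 and 3.09 in control hippocampus, and at 6.56 and 4.67 in exposed and 4.65 and 5.46 in control cortex. In both tissues exposed 3 was the highest array for Omd, as it was for Ogn.

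The gap was also computed over markers of other cells. Median gaps were 0.30 in cortex and 0.40 in hippocampus over 10 other fibroblast markers, 0.33 and 0.43 over 13 pericyte and smooth muscle markers, and 0.24 and 0.37 over 16 endothelial markers. Over 10 choroid plexus markers they were -0.04 and 0.26, and over 11 basement membrane genes -0.04 and 0.11. The 4 macrophage markers had -0.25 and 0.28, and the 5 ependymal markers 0.33 and 0.01. Cortical neuron markers had -0.15 in cortex and 0.62 in hippocampus, and hippocampal neuron markers -0.04 and -0.33. Exposed 3 was above in both tissues for 6 of 10 fibroblast, 9 of 13 pericyte and smooth muscle and 9 of 16 endothelial markers. The counts were 4 of 10 for choroid plexus, 3 of 11 for basement membrane, 0 of 4 for macrophage and 1 of 5 for ependymal genes. For cortical and hippocampal neuron markers they were 2 of 7 and 1 of 7. Among the hippocampal arrays, exposed 3 had the highest mean level of the cortical markers (9.41) and the highest Fmod (9.02). The part of these markers in the hippocampal gaps was not tested. None of these gaps was tested, since each rests on 1 array against 1 array. Whether meningeal tissue on the dissected pieces differed between arrays was not tested beyond these marker levels.

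Correlations within tissue, with each tissue's mean removed, describe how the genes varied together over the 8 arrays. The 45 pairs of the 10 genes had a median r of 0.49, from -0.30 to 0.98. Dcn, Fmod, Ogn, Islr, Igf2 and Slc22a6 were picked for exposed 3 lying at least 1 above exposed 6 in both tissues. That choice by itself favours a high r among them over the 8 arrays. It also bears on the 6 arrays without exposed 3, since the exposed 6 values used in the choice remain. Their 15 pairs had a median of 0.77, from 0.27 to 0.98, and of 0.78 over the 6 arrays left without the exposed 3 arrays. Ogn and Islr were the closest pair at r = 0.98. Each gene against the mean of the other 8 tested genes gave 0.94 for Ogn, 0.88 for Islr, 0.82 for Slc22a6, 0.77 for Igf2, 0.74 for Fmod, 0.70 for Lum, 0.53 for Col1a2, 0.52 for Dcn and -0.17 for Col1a1. The collagen pairs were between 0.01 and 0.14, and the chains that Col1a1 and Col1a2 encode form 1 protein. Col1a1 ranged from 3.88 to 5.39, Col1a2 from 4.70 to 5.65, and Col3a1 lay below the filter limit of 3.94. At such low levels and narrow ranges, these r values do not show whether the collagen genes vary apart. With the mean of each group of 2 removed, which leaves only the gaps within pairs of arrays, Col1a1 was between -0.89 and -0.56 with all other genes except Col1a2, at 0.00. With the tissue means left in, Dcn and Lum correlated at 0.85 and Dcn and Fmod at -0.46. The arrays share tissue, arm and possibly animals, so these values carry no p.

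**Figure D5:**
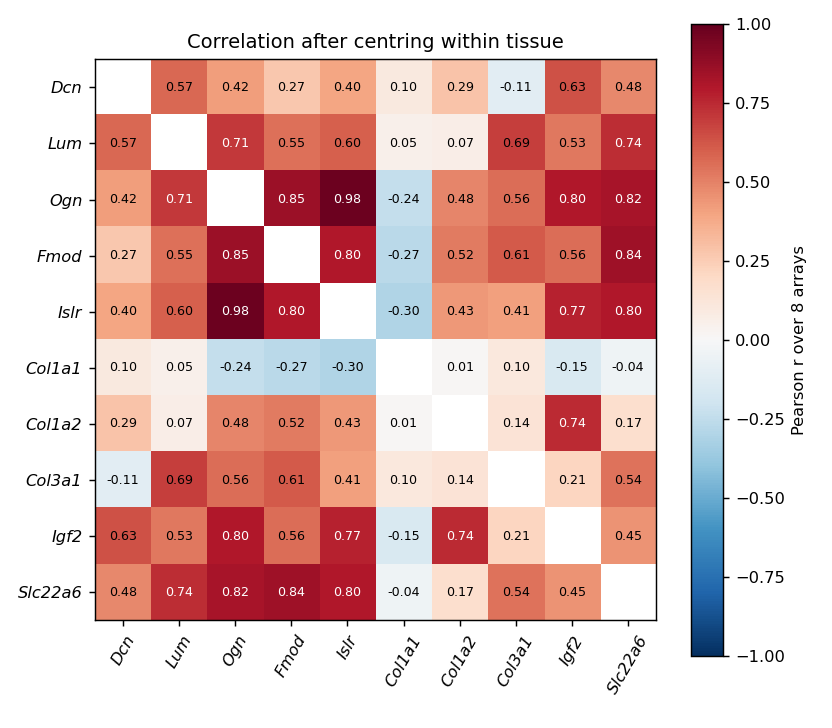
The matrix shows Pearson r between each pair of the 10 genes over 8 arrays after each tissue's mean was removed, from blue below 0 to red above 0. Ogn and Islr are the strongest pair (0.98), and the highest value of Col1a1 with any other gene is 0.10, with Col3a1.

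Outside the 10 genes, the closest patterns were sought by Pearson r with the mean of the 9 centred genes, among 9709 named probe sets with an SD of at least 0.3 over the 8 arrays. The 12 highest were Hcar1 (0.95), Lgals1 (0.94), Copz2 (0.93), Rhoc (0.93), Aldh1a2 (0.92), Ttc30b (0.91), Tcta (0.91), Mdk (0.91), Traf7 (0.91), Timp4 (0.90), Tmed4 (0.90) and Anxa3 (0.90). Hcar1 encodes the lactate receptor, Lgals1 galectin-1 and Aldh1a2 an enzyme of retinoic acid synthesis that is a marker of meningeal fibroblasts. Hcar1 was at 5.02 and 3.73 in exposed and 5.14 and 4.25 in control hippocampus, and at 5.26 and 3.78 in exposed and 4.16 and 4.19 in control cortex. Aldh1a2 was at 6.37 and 5.11 in exposed and 5.90 and 5.38 in control hippocampus, and at 6.49 and 5.52 in exposed and 5.50 and 5.38 in control cortex. Each of the 2 had its highest cortical value in exposed 3 and its lowest hippocampal value in exposed 6. The mean of the 9 centred genes had the same pattern. Both genes were chosen by their r with that mean, so the match is no separate observation.

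Genes of the same matrix pathway were counted beside the 10. Between exposed and control mice, 0 of 5 other small leucine-rich repeat proteoglycans, 0 of 5 other fibroblast collagens, 0 of 11 basement membrane genes, 0 of 17 collagen processing genes, 0 of 10 elastic and stromal matrix genes, 0 of 19 meningeal markers, 0 of 10 fibroblast markers and 0 of 10 IGF axis genes passed in either tissue. Of these 87 genes, 8 in hippocampus and 4 in cortex had an unadjusted p under 0.05 in limma, or 9.2% and 4.6%, against 5.81% and 6.18% of all probe sets tested. Median exposure differences of these 8 lists lay between -0.16 and 0.25 in cortex and between -0.21 and 0.38 in hippocampus. Fn1, the gene of fibronectin, was at 8.95 and 8.89 in exposed and 7.85 and 7.85 in control hippocampus, and at 8.86 and 7.85 in exposed and 7.46 and 7.81 in control cortex. Its differences of 1.07 in hippocampus (unadjusted p = 0.00672, adjusted p = 0.769 in limma) and 0.72 in cortex (unadjusted p = 0.0481, adjusted p = 0.801) did not pass. Mgp, which encodes an inhibitor of matrix calcification, had 0.71 in hippocampus (adjusted p = 0.926) and 1.20 in cortex (adjusted p = 0.784).

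Between the tissues, 10 of these 87 genes passed in exposed mice (11.5%, against 14.5% of all probe sets tested) and 17 of 87 in control mice (19.5%, against 17.7%). Of the other proteoglycans, 1 of 5 (Prelp) passed as higher in hippocampus in exposed mice and 2 of 5 (Prelp and Ecm2) in control mice. The Ecm2 call was lost without the 2 arrays high in Ttr (0.92, adjusted p = 0.202 in limma) and without control 6 cortex (1.39, adjusted p = 0.0688). Of 19 listed meningeal markers, 1 passed as higher (Ccn3) and 1 as lower in each arm (Dpp4 in exposed, Gjb6 in control mice). In exposed mice 15 and in control mice 12 were below 0, with medians of -0.47 and -0.37. The Gjb6 call was lost in 7 of 17 alternatives, and the Ccn3 call in control mice in 2 of 17. For Gjb6, no filter gave an adjusted p of 0.0545 in limma and no trend gave 0.0624. Whole-tissue levels do not show which cells hold the Ccn3 and Gjb6 RNA. Among 17 collagen processing genes, 2 passed as higher in exposed mice and 4 in control mice, and 0 as lower. They included Sparc, a collagen-binding protein, with differences of 1.40 in exposed and 1.41 in control mice, and P4ha2, a prolyl hydroxylase subunit, with 1.37 in exposed and 1.23 in control mice. The Sparc call was lost in 3 of 17 alternatives in exposed and 2 of 17 in control mice, and the P4ha2 call in 3 of 16 and 4 of 16. The other 2 control calls, Loxl3 and P4ha1, were each lost in 7 of 17. In control mice all 4 calls were lost without control 1 cortex and without the 2 arrays high in Ttr, and in exposed mice the Sparc and P4ha2 calls were lost without both exposed 3 arrays and without exposed 3 hippocampus alone. Adjusted p-values in limma reached 0.208 for P4ha2 in exposed and 0.383 for Loxl3 in control mice. Of 5 other fibroblast collagens, 0 passed in either arm.

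The calls of Lamb1, Mfap4 and Igfbp6 held in both arms in all 17 alternatives. Lamb1, the laminin beta 1 chain, was higher in hippocampus by 2.72 in exposed and 3.37 in control mice. Lama4, the laminin alpha 4 chain of vessels, passed as lower, with -1.06 in exposed mice (adjusted p = 0.0254 in limma) and -0.88 in control mice (adjusted p = 0.0483). Its call was lost in 5 of 17 alternatives in exposed mice, each of them leaving out exposed arrays (adjusted p up to 0.201), and in 13 of 17 in control mice (up to 0.273). Mfap4, a microfibril protein, was higher by 2.99 in exposed and 2.05 in control mice. Among binding proteins of insulin-like growth factors, Igfbp6, which prefers IGF2, was at 6.36 and 5.72 in exposed and 5.91 and 5.53 in control hippocampus, against 9.81 and 9.47 in exposed and 9.51 and 9.54 in control cortex. The Igfbp6 difference was -3.60 in exposed mice (adjusted p = 1.16e-05 in limma) and -3.81 in control mice (adjusted p = 6.08e-06). Igfbp3, the main carrier in blood, had differences of 1.14 in exposed mice (adjusted p = 0.0323) and 1.59 in control mice (adjusted p = 0.00469), and passed in both. Its call was lost in 5 of 16 alternatives in exposed mice, among them exposed 6 hippocampus left out (0.87, adjusted p = 0.191), and in 1 of 16 in control mice, without control 1 cortex (adjusted p = 0.0547).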

How the data were processed

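Total RNA was hybridised to 1-colour arrays, in 8 samples. The deposited values are log2 levels, 1 per probe set and array, normalized by the authors. Per the submitters' processing notes the method was RMA, with no version given. The file does not name its log base, which was read from the values, which run between 1.59 and 19.93. No detection values were used, so a low level is not shown to be above background. GEO's platform annotation gives 1 symbol for 19572 probe sets. The other 2634 had no symbol or more than 1 and were left unnamed. A filter removed the 33.3% of probe sets with the lowest 8-array mean, under 3.94. With limma 3.58.1 in R 4.3.3, 1 mean per tissue and arm was fitted (4 residual and 7.92 prior degrees of freedom), and eBayes was run with a mean-variance trend. P-values were two-sided, adjusted by Benjamini-Hochberg over 14804 probe sets per comparison, with a threshold of 0.05. The fit was tested on simulated data first. The 10 genes, the lists and the tests were chosen with earlier results of these data known, so a list is described by counts and medians and has no test. All 10 genes are named. The rule for the lists was up to 3 genes with the smallest p for exposure and all that passed where at most 6 did, and some of these are described. Array values of Slc22a8, Omd and Ptgds were picked for print after they were seen. RefSeq tables of GRCm38.p6 gave gene order and promoters. Alternatives were other filters, quantile normalization, median centring, no trend, array weights, a replicate block and arrays left out, and leaving out both exposed 3 arrays was added after seeing the data.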

Additional observations from a re-analysis of the deposited data

How the results depend on the processing

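Precision is limited by having 2 arrays per group, and without signal over background the low collagen levels cannot be placed. Where 1 array of a group was left out, the lone array was assumed to vary like the other groups. Of 755 values of the 10 genes under the alternatives, 672 kept direction and side of the threshold, 10 lost a call, 8 gained one and 65 changed sign; of 783 values of listed genes the counts were 691, 82, 3 and 7. Dcn in control mice passed as higher in hippocampus under all alternatives run (adjusted p from 1.91e-07 to 0.00423 in limma).

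Counts of probe sets that passed changed as follows. For exposure in cortex, 1 became 0 with quantile normalization, without the trend and without both exposed 3 arrays, 2 with array weights and with the replicate block, 3 without both arrays high in Ttr, and 0 to 2 with 1 array left out. For exposure in hippocampus, 1 became 0 with quantile normalization, without the trend, with array weights, without the Ttr-high arrays and without exposed 3, and 0 to 56 with 1 array left out; 56 came without control 6 hippocampus, where Pcolce2 (-3.04, adjusted p = 0.000992), Igfbp2 (-2.50, 0.00529) and Lepr (-3.07, 0.00483) passed. For the difference between tissues, 0 became 1 with the replicate block and 0 to 30 with 1 array left out. Between the tissues in exposed mice, 2143 became 536 without exposed 3 and 1074 to 2440 with 1 array left out; in control mice, 2620 became 1155 without the Ttr-high arrays and 1289 to 2532 with 1 array left out.

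Array numbers recur in both tissues, and the labels do not say whether same-numbered arrays come from the same animal. Deviations of same-numbered arrays correlated at 0.28 in exposed and -0.001 in control mice over 14804 probe sets. With a single gap per tissue and arm, these correlations cannot decide the pairing. The main fit did not take the numbers as pairs. As an alternative, arm and number entered limma as a random block for the exposure comparisons (consensus correlation 0.19). For the other comparisons they entered as a fixed term. With the fixed term, Fmod passed as lower in hippocampus, at -2.10 in exposed (adjusted p = 0.013 in limma) and -2.71 in control mice (adjusted p = 0.0023). In those comparisons 2835 and 3433 probe sets passed.

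Medians over the 9 genes moved to -0.91 for exposure in hippocampus without exposed 3 and to -0.06 for the tissues in control mice without the Ttr-high arrays. With 1 array left out they ranged from -0.02 to 1.29 for exposure in cortex, from -0.91 to 0.26 for exposure in hippocampus, from -0.995 to 0.475 for the tissues in exposed mice, from -1.76 to 0.11 for the difference and from -0.32 to 0.90 for the tissues in control mice. Signs changed without both exposed 3 arrays for exposure in cortex (Dcn -0.56, Fmod -0.35, Col1a2 0.05, Slc22a6 -0.02, Igf2 -0.18, Islr -0.38, Omd -0.39), exposure in hippocampus (Fmod -1.10, Ogn -0.91, Slc22a6 -0.40, Islr -0.52), the difference (Fmod -0.75) and the tissues in exposed mice (Ogn -0.15). Without the Ttr-high arrays they changed for Col1a2 in cortex (0.33), for Col1a2, Igf2, Pcolce2 and Igfbp2 in hippocampus (0.10, 0.33, 0.035 and 0.01), for Ogn and Islr in the difference (0.47 and 0.65) and for Ogn, Col1a2 and Igf2 between the tissues in control mice (-0.31, 0.03 and -0.06).

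Leaving out 1 array gave the following ranges where a sign changed. For exposure in cortex these were Dcn -0.56 to 0.98, Fmod -0.35 to 1.91, Col1a2 -0.39 to 0.33, Slc22a6 -0.02 to 1.29, Igf2 -0.18 to 0.86, Islr -0.38 to 1.53, Omd -0.39 to 1.51, Pi16 -0.035 to 0.82. For exposure in hippocampus they were Fmod -1.10 to 3.89, Lum -1.27 to 0.26, Ogn -0.91 to 1.41, Col1a2 -0.46 to 0.26, Slc22a6 -0.40 to 0.75, Igf2 -2.92 to 0.33, Islr -0.66 to 1.26, Pcolce2 -3.04 to 0.035, Igfbp2 -2.50 to 0.01. For the difference they were Fmod -1.88 to 3.11, Ogn -1.76 to 0.55, Col1a2 -0.43 to 0.29, Slc22a6 -1.12 to 0.20, Islr -1.23 to 0.68. Between the tissues they were, in exposed mice, Fmod -4.59 to 0.40, Ogn -0.995 to 1.32, Col1a2 -0.56 to 0.16, Igf2 -1.94 to 0.86, Islr -1.30 to 0.62, and, in control mice, Ogn -0.25 to 1.78, Col1a2 -0.49 to 0.23, Igf2 -0.53 to 2.72, Islr -1.02 to 0.89. The cause of these changes was not tested beyond the arrays left out.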

Other observations

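Exposed 3 lay above exposed 6 by at least 1 on the log2 scale in both tissues for 87 of 14804 probe sets. Beside genes named above, these included Aebp1, a collagen-binding matrix protein (gaps of 1.48 in cortex and 1.96 in hippocampus), Prg4, the lubricin gene (1.97 and 1.46), Bmp4, a growth factor gene (1.29 and 1.34), and Pltp, a phospholipid transfer protein (1.61 and 1.47). Acta2, the smooth muscle actin gene, had gaps of 1.15 and 2.52, while its mural marker list had medians of 0.33 and 0.43. Most of the named genes among the 87 probe sets belonged to none of the marker and matrix lists used here. Genes with no matrix role were among them, such as Cdkn1a, a cell cycle inhibitor (1.05 and 2.47), and Dbp, a circadian transcription factor (1.40 and 1.07). Others were Mt2, a metallothionein (1.39 and 1.07), and the ribosomal protein genes Rpl28 (1.32 and 1.08) and Rps15 (1.04 and 1.34). These genes were picked after their values were seen, and each gap sets 1 array against 1 array with no test.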
